A study of Mus musculus with 10 samples.

Results

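The proteasome subunit genes are described here in 6 mouse livers that were regrowing 40 h after partial hepatectomy, an operation that removes most of the organ. They were taken as every gene locus of the deposited expression table whose symbol starts with Psma, Psmb, Psmc, Psmd, Psme, Psmf or Psmg and a digit, which gave 49 of 23535 loci with values. In 3 livers, called KO, the mice were Arid1a Fl/Fl and carried Alb-cre, and in the 3 called WT they were Arid1a Fl/Fl without it. Both groups therefore carry the floxed allele of Arid1a, a DNA-binding subunit gene of the SWI/SNF chromatin remodelling complex, and both had the operation. Alb-cre expresses Cre recombinase chiefly in hepatocytes, and cells of a KO liver without Cre keep the gene. Which cells lost it was not measured here. The mice had a C57/B6 and 129 background and were at postnatal day 90. A further 4 livers, taken before the operation, were not analysed here, so no response to hepatectomy itself was computed. Whether the libraries of a group stem from separate mice is not stated, and if they do not, the p-values reflect the spread among libraries alone.

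The proteasome is the protease that degrades proteins tagged with ubiquitin. Its 20S core is a stack of rings of alpha and beta subunits, and only some of the beta subunits cut proteins. A 19S cap on the core holds ATPases that unfold substrates and further subunits that bind and remove ubiquitin, and dedicated chaperones assemble core and cap. Interferon and immune cells induce alternative catalytic subunits, encoded by Psmb8, Psmb9 and Psmb10, which replace those encoded by Psmb5, Psmb6 and Psmb7 and form the immunoproteasome. Psme1 and Psme2 encode the ring-shaped PA28 activator that is induced with them. Immunoproteasomes generate many of the peptides that MHC class I molecules display.

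Levels are given as FPKM, a fragment count divided by transcript length and by the mapped fragments of the library, so that they can be set side by side between genes. Arid1a itself was 4.41, 5.57 and 6.15 FPKM in the KO libraries, against 8.68, 8.45 and 8.49 FPKM in the WT libraries. The KO and WT values did not overlap, with a log2 difference of -0.59 (SE 0.15) and a limma adjusted p of 0.207. FPKM summed to between 430725 and 495209 in KO and between 409142 and 480544 in WT, and absolute depth is unknown. As deposited, the median log2 difference of all 10956 genes tested was 0.15, which means that a typical gene was slightly higher in KO. After rescaling the libraries by the median of ratios it was 0.02, so differences are read against this shift. KO replicate 2 held the highest value of the 6 libraries for 32.4% of all tested genes, more than any other library.

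Of the 49 proteasome genes, 47 had a mean of at least 1 FPKM over the 6 libraries and were tested. The genes below that mean were Psma8 and Psmb11. No proteasome gene passed an adjusted p of 0.05, where 0.119% of all genes tested did, and the smallest adjusted p among them was 0.309 (limma, Benjamini-Hochberg over all genes tested). The log2 difference was above 0 for 44 of the 47, against 69.7% of all tested genes, and the 47 had a median of 0.25, against 0.15 for all genes. At an unadjusted p under 0.05 there were 8, all higher in KO, where 11.2% of all genes were higher and 3.99% lower by the same rule. They were Psmb8, Psmb9, Psme2, Psme3, Psmd1, Psmd3, Psmd10 and Psmg2. For 12 genes every KO library lay above every WT library, and for 0 every KO library lay below, against 16.7% and 5.44% of all genes.

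These counts depended on the scaling and on single libraries. After median-of-ratios rescaling, 35 of the 47 differences were above 0, against 52.9% of all genes. The median of the 47 was then 0.10, and 0 genes had an unadjusted p under 0.05, where 5.47% of all genes were higher and 6.61% lower by that rule. In 6 genes every rescaled KO value lay above every WT value and in 0 every one lay below, against 8% and 9.67% of all genes. The 6 were Psme2, Psme3, Psmd1, Psmd3, Psmd10 and Psmd11. The unadjusted count was 4 without KO replicate 1, 2 without KO replicate 2, 2 without KO replicate 3, 0 without WT replicate 1, 1 without WT replicate 2 and 6 without WT replicate 3. KO replicate 2 held the highest value for 29 of the 47 genes and WT replicate 2 the lowest for 27, where WT replicate 2 was the lowest library for 23.2% of all genes. After rescaling these were 25 and 18 genes, against 24.1% and 19.3% of all genes. Without KO replicate 2 the median log2 difference of the 47 genes was 0.15 and that of all genes 0.12. The map of proteasome genes by library shows this column.

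**Figure D1:**
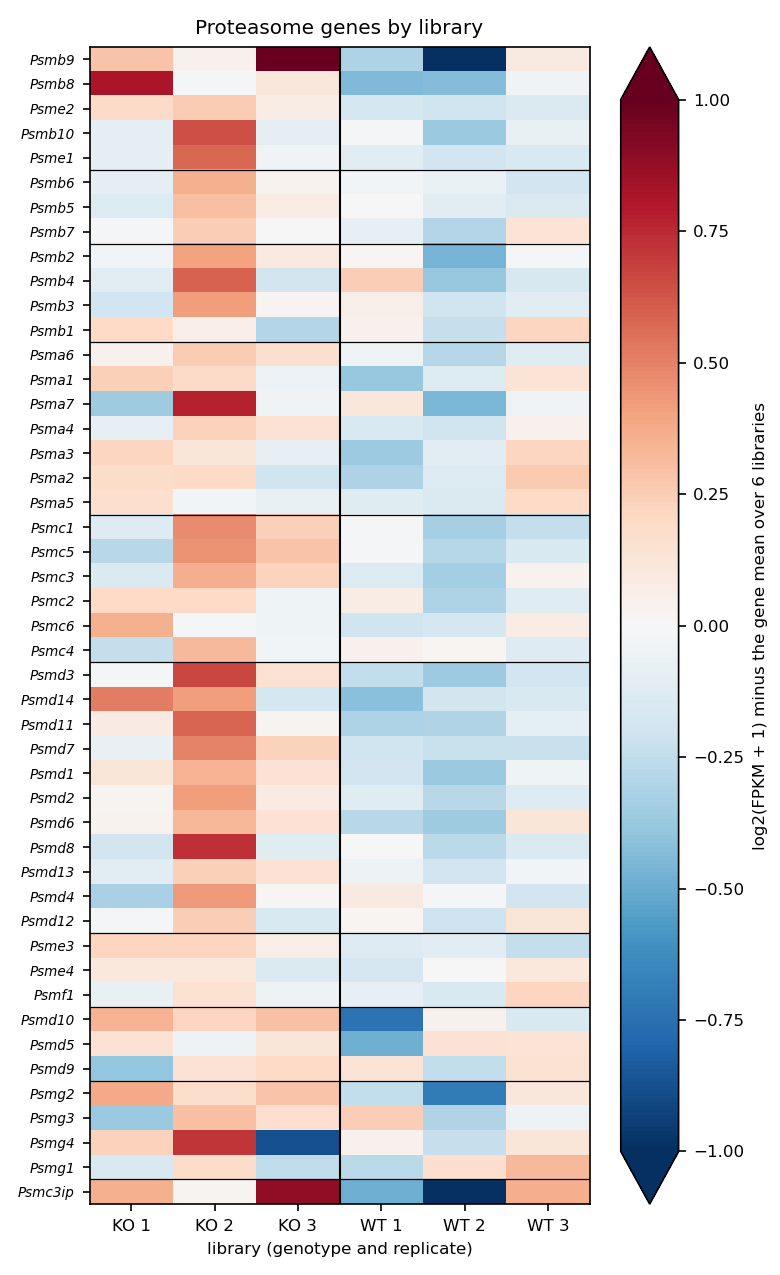
Each row is 1 of the 47 tested genes and each column 1 library, KO left of the vertical line and WT right of it. Colour is log2(FPKM + 1) minus the gene's mean over the 6 libraries, with values beyond 1 in either direction drawn in the end colours, and horizontal lines part the role groups in the order of the plot of differences. KO replicate 2 is the highest library for 29 genes and WT replicate 2 the lowest for 27, while Psmb8 peaks in KO replicate 1 and Psmb9 in KO replicate 3.

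The immunoproteasome genes were the group with the largest single differences among true subunits, and its catalytic members did not peak in the same libraries. All 5 had a log2 difference above 0, 3 had an unadjusted p under 0.05 and 3 had every KO library above every WT library. Among all tested genes, the shares higher in KO by these rules were 69.7%, 11.2% and 16.7%. None of the 5 was called, and after median-of-ratios rescaling none of them had an unadjusted p under 0.05. Only Psme2 of the 5 kept every KO library above every WT library after that rescaling. Their median log2 difference was 0.34, against 0.24 for the 31 tested constitutive subunits of the core and cap and 0.15 for all tested genes. After median-of-ratios rescaling the medians were 0.19, 0.09 and 0.02, and without KO replicate 2 they were 0.30, 0.15 and 0.12. Within the constitutive subunits, the 11 non-ATPase subunits of the cap had medians of 0.35, 0.20 and 0.26 in the same 3 settings. A median shift of this size was thus not particular to the immunoproteasome genes.

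Psmb8 (chromosome 17, 34198195 to 34201454, mm10) encodes beta5i, the inducible chymotrypsin-like subunit. It was 20.3, 11.0 and 12.1 FPKM in KO, against 7.90, 7.97 and 10.8 FPKM in WT. As deposited, all KO values lay above all WT values, but KO replicate 2 exceeded WT replicate 3 only narrowly, and KO replicate 1 stood far above the rest. After median-of-ratios rescaling KO replicate 2 lay below WT replicate 3. The log2 difference was 0.61 (SE 0.25, adjusted p = 0.326). Without KO replicate 2 it was 0.77, and over all 6 libraries left out in turn it ranged from 0.35 to 0.77.

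Psmb9 (chromosome 17, 34182099 to 34187330) encodes beta1i and lies next to Psmb8, with the peptide transporter gene Tap1 between them. It was 8.95, 7.43 and 15.2 FPKM in KO, against 5.59, 2.82 and 7.68 FPKM in WT. The groups overlapped, since WT replicate 3 lay above KO replicate 2, and the highest value was that of KO replicate 3. The log2 difference was 0.88 (SE 0.36, adjusted p = 0.325). Leaving out 1 library at a time gave 0.55 to 1.14.

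Psmb10 (chromosome 8, 105935728 to 105938392) encodes beta2i, the inducible trypsin-like subunit. It was 9.34, 16.3 and 9.36 FPKM in KO, against 9.96, 7.55 and 9.50 FPKM in WT. Only KO replicate 2 stood above the WT libraries, and the other KO libraries lay within the WT range. The log2 difference was 0.30 (SE 0.24, adjusted p = 0.548), and it was 0.06 without KO replicate 2.

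The activator genes were far more abundant than the inducible catalytic genes. Psme1 (chromosome 14, 55578494 to 55581527), which encodes PA28 alpha and overlaps the locus of Emc9, was 45.5, 72.7 and 47.4 FPKM in KO, against 45.0, 42.5 and 43.6 FPKM in WT. As deposited, all KO values were above all WT values, though KO replicate 1 only just, and KO replicate 2 was much the highest. After median-of-ratios rescaling KO replicate 1 lay below WT replicate 1. The log2 difference of Psme1 was 0.30 (SE 0.21, adjusted p = 0.515) and 0.09 without KO replicate 2. Psme2 (chromosome 14, 55587440 to 55591101), which encodes PA28 beta, was 46.8, 49.1 and 43.0 FPKM in KO, against 36.2, 35.6 and 36.9 FPKM in WT. As deposited, the groups were apart with little spread in either. The log2 difference of Psme2 was 0.34 (SE 0.14, adjusted p = 0.323), between 0.30 and 0.39 with any 1 library left out. After median-of-ratios rescaling it was 0.19 (limma adjusted p = 0.603).

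The constitutive catalytic genes were the counterpart of this group, and each had overlapping values. Psmb5, which encodes the chymotrypsin-like beta5, was 46.9, 63.9 and 54.2 FPKM in KO, against 51.8, 47.9 and 46.7 FPKM in WT. Psmb6, which encodes the caspase-like beta1, was 67.2, 92.2 and 73.6 FPKM in KO, against 70.6, 68.6 and 62.9 FPKM in WT. Psmb7, which encodes the trypsin-like beta2, was 66.3, 79.6 and 66.9 FPKM in KO, against 63.1, 54.5 and 73.7 FPKM in WT. In all 3 genes KO replicate 2 was the highest library and KO replicate 1 lay within the WT range. The log2 differences were 0.16 (SE 0.17), 0.19 (SE 0.18) and 0.16 (SE 0.18), with adjusted p from 0.614 to 0.686. After median-of-ratios rescaling the 3 had a median of 0.0099. RefSeq lists pseudogene copies of Psma5, Psmb5, Psmb6 and Psmb7 and a paralog of Psme2, Psme2b, which are not used here. The counting may have split reads between these genes and their copies, and their values are uncertain to that extent.

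**Figure D2:**
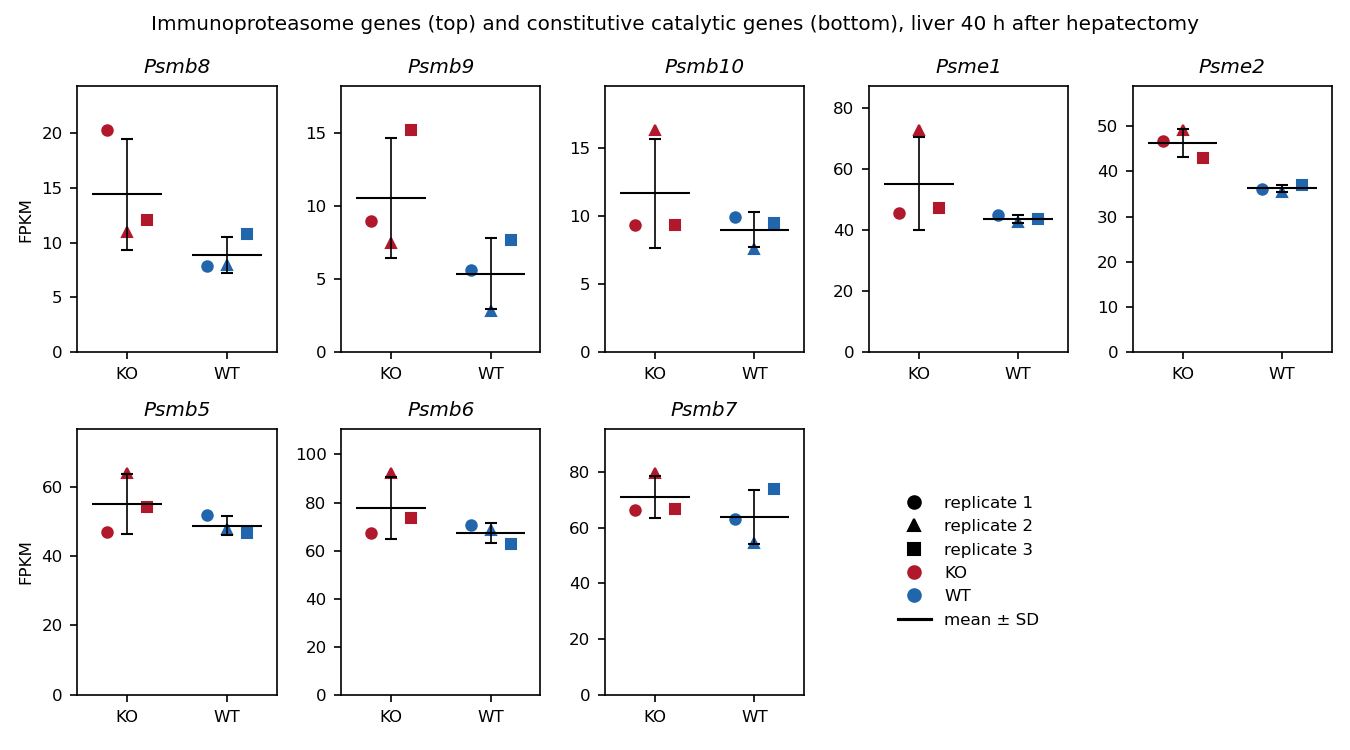
FPKM of the 5 immunoproteasome genes (top row) and the 3 constitutive catalytic genes (bottom row) in each library, KO left and WT right, with a marker shape for each replicate number and the mean ± SD of 3 libraries in black. In Psme2 the KO values of 43.0 to 49.1 FPKM lie apart from the WT values of 35.6 to 36.9 FPKM. KO replicate 2 (triangle) is the highest library for all genes shown except Psmb8 and Psmb9.

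The contrast between inducible and constitutive subunits was read within each library, as the share of the inducible gene in the summed FPKM of its pair. For Psmb8 and Psmb5 the share of Psmb8 was 30.2%, 14.7% and 18.2% in KO, against 13.2%, 14.3% and 18.8% in WT. One KO library stood out and the other KO shares lay within the WT range. For Psmb9 and Psmb6 the share of Psmb9 was 11.8%, 7.46% and 17.1% in KO, against 7.33%, 3.95% and 10.9% in WT, so that KO replicates 1 and 3 lay above every WT library. For Psmb10 and Psmb7 the share of Psmb10 was 12.4%, 17.0% and 12.3% in KO, against 13.6%, 12.2% and 11.4% in WT. In every library the constitutive gene of each pair was the more abundant.

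As log2 ratios, the KO and WT libraries overlapped in all 3 pairs. The exact test used here cannot give a p under 0.05 for a difference of any size. The Psmb8 to Psmb5 log2 ratio averaged -1.90 ± 0.65 in KO and -2.34 ± 0.29 in WT (SD, n = 3 each), a difference of 0.45 with an exact two-sided permutation p of 0.4. The Psmb9 to Psmb6 log2 ratio averaged -2.82 ± 0.63 in KO and -3.50 ± 0.66 in WT, a difference of 0.69 with an exact p of 0.3. The Psmb10 to Psmb7 log2 ratio averaged -2.54 ± 0.28 in KO and -2.69 ± 0.14 in WT, a difference of 0.15 with an exact p of 0.7. Adjusted over the 3 pairs these exact p-values were 0.6, 0.6 and 0.7, and the smallest exact p that 3 against 3 libraries allow is 0.1. Without KO replicate 2 the difference of the Psmb8 pair was 0.72 and that of the Psmb9 pair 1.01, whereas that of the Psmb10 pair was -0.014. Without KO replicate 1 the Psmb8 pair differed by 0.09.

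**Figure D3:**
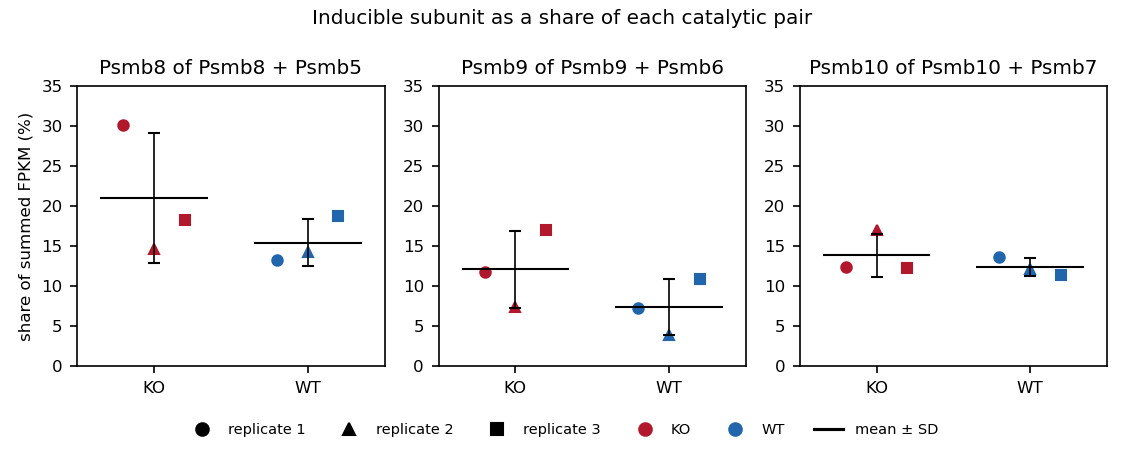
Share of the inducible gene in the summed FPKM of its pair, in percent, for each library, KO left and WT right, with the mean ± SD of 3 libraries in black. For Psmb8 the highest share is 30.2% in KO replicate 1, and the KO and WT libraries overlap in all 3 panels.

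The promoter windows of the Psmb8/Psmb5 and Psmb9/Psmb6 pairs are shown, and those of the Psmb10/Psmb7 pair are not. Psmb10 had no match to any of the motifs searched below. In each gene shown, only a motif that it contains is marked, so the marks by themselves do not contrast the genes. RefSeq (GRCm38.p6) gave a promoter for 41 of the 49 genes, and the 250 bases before the start site are printed 5′ to 3′ on the gene's own strand. Psmb9 starts on the minus strand at 34187330 and Tap1 on the plus strand at 34187556 of chromosome 17, 226 bases apart, so that 1 stretch of sequence precedes both genes. Capitals mark the letters TTCNNNGAA, the palindrome that STAT factors bind, in Psmb8, CCAAT, the box that NF-Y binds, in Psmb9 (on the opposite strand, as attgg), and TGACNNNGC, a form of the element that the factors encoded by Nfe2l1 and Nfe2l2 bind, in Psmb5 and Psmb6.
Psmb8, chr17:34197945-34198194, plus strand: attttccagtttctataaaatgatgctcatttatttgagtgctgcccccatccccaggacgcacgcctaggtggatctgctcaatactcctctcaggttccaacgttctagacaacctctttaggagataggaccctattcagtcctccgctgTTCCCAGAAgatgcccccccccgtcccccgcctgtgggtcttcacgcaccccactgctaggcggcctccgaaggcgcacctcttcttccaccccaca
Psmb9, chr17:34187331-34187580, minus strand: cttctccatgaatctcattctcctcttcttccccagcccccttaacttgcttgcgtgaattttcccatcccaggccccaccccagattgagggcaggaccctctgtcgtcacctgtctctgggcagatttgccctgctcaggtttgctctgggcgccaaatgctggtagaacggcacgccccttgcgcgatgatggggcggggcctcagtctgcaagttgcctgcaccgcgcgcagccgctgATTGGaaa
Psmb5, chr14:54617996-54618245, minus strand: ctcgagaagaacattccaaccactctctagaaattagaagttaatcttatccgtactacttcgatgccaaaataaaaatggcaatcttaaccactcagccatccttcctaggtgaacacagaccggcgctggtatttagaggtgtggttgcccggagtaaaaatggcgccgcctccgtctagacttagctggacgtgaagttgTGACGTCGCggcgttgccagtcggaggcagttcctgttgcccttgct
Psmb6, chr11:70525107-70525356, plus strand: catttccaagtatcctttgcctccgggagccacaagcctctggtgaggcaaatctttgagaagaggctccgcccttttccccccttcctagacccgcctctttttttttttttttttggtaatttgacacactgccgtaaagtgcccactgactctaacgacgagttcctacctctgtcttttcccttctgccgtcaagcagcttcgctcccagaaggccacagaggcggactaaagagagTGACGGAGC

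Each motif was searched on both strands in the same 250-base window of 16201 genes of the table. TGACNNNGC was found in 5 of the 41 proteasome promoters (Psmb5, Psmb6, Psmc6, Psmd9 and Psmd12), against 11% of all promoters, and TGAGNNNGC, its variant, in 9, against 15% of all promoters. TTCNNNGAA was found in 2 (Psmb8 and Psmg1), against 6.75%, and CCAAT in 14, against 35.9%. The core of the interferon-stimulated response element (GAAA, any 2 bases, GAAA) was found in 3 (Psmb3, Psmd4 and Psmd9), against 3%, and in 0 of the 5 immunoproteasome promoters. Motifs were counted separately, whether or not their matches overlapped. A match describes letters in this window and not a bound site.

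Among the remaining core subunits, which form the barrel, the groups overlapped for all but 1 gene as deposited. The 7 tested alpha ring genes had log2 differences from 0.04 to 0.30, with adjusted p of at least 0.387, and those of Psma2 and Psma5 were below 0 after median-of-ratios rescaling (-0.027 and -0.10). Psma6 was 62.7, 72.9 and 68.0 FPKM in KO, against 58.9, 49.7 and 56.0 FPKM in WT. It was the only one in which KO and WT did not overlap as deposited, and they did overlap after median-of-ratios rescaling. Its log2 difference was 0.30 (SE 0.16, adjusted p = 0.387). Psma7 varied most, with 49.0, 108 and 61.3 FPKM in KO, against 68.3, 45.7 and 61.4 FPKM in WT. KO replicate 2 alone lay above its WT range, and its log2 difference of 0.25 became -0.07 without that library. Psma1, Psma4 and Psma3 had log2 differences of 0.25, 0.20 and 0.17.

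The 4 structural beta genes, which have no catalytic site, overlapped between KO and WT. Psmb2 was 45.1, 61.1 and 49.0 FPKM in KO, against 46.7, 33.1 and 45.5 FPKM in WT. KO replicates 2 and 3 lay above the WT range, and its log2 difference, the largest of the 4, was 0.31 (SE 0.21, adjusted p = 0.487). Psmb4 and Psmb3 had log2 differences of 0.20 and 0.17, each with KO replicate 2 as the highest library. Psmb1, the most abundant proteasome gene, averaged 74.9 ± 12.9 FPKM in KO and 75.9 ± 11.8 FPKM in WT (SD, n = 3 each), with a log2 difference of -0.02.

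The 6 ATPase genes of the cap base had log2 differences from 0.04 to 0.39, and none separated KO from WT. Psmc1 was 30.2, 46.3 and 39.1 FPKM in KO, against 32.7, 26.1 and 28.0 FPKM in WT, where KO replicates 2 and 3 were the highest libraries. Its log2 difference was 0.39 (SE 0.20, adjusted p = 0.387). Psmc5, Psmc3 and Psmc2 had log2 differences of 0.30, 0.30 and 0.24, and KO replicate 2 led 5 of the 6 genes. Psmc4 had a log2 difference of 0.04, and of -0.11 after median-of-ratios rescaling.

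The 11 non-ATPase subunits of the cap, all of them higher on average in KO as deposited, held 5 of the 12 genes with separated groups. Of all tested genes, 69.7% were higher in KO and 16.7% had every KO library above every WT library. The median log2 difference of the 11 was 0.35, and 0.20 after median-of-ratios rescaling. Psmd3, a lid subunit, was 33.2, 54.4 and 37.6 FPKM in KO, against 28.3, 26.1 and 29.4 FPKM in WT, with a log2 difference of 0.53 (SE 0.21, adjusted p = 0.314). Psmd1, the base scaffold subunit Rpn2, overlaps the locus of Htr2b and was 38.4, 45.0 and 39.1 FPKM in KO, against 30.7, 27.0 and 34.1 FPKM in WT, with a log2 difference of 0.41 (SE 0.16, adjusted p = 0.313). In both genes every KO library lay above every WT library, and KO replicate 2 was the highest.

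Psmd7, which encodes the partner of the deubiquitinase in the lid, was 31.8, 47.6 and 39.5 FPKM in KO, against 29.1, 28.5 and 28.7 FPKM in WT. As deposited, the WT libraries were within 1 FPKM of each other and all KO libraries lay above them. The log2 difference was 0.43 (SE 0.18, adjusted p = 0.331), and 0.28 after median-of-ratios rescaling. Psmd14, the deubiquitinase itself, was 31.1, 29.0 and 18.9 FPKM in KO, against 15.8, 18.7 and 19.1 FPKM in WT. KO replicates 1 and 2 stood above all WT libraries and KO replicate 3 lay inside their range, with a log2 difference of 0.51 (SE 0.22, adjusted p = 0.333). The other genes with separated groups as deposited were Psmd2 and Psmd11, with 52.8 ± 8.10 and 59.8 ± 13.6 FPKM in KO and 40.9 ± 2.60 and 42.6 ± 3.84 FPKM in WT. After median-of-ratios rescaling KO and WT overlapped for Psmd7 and Psmd2. Psmd4, the ubiquitin receptor Rpn10, and Psmd12 had log2 differences of 0.07 and 0.05, and of -0.07 and -0.10 after median-of-ratios rescaling.

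**Figure D4:**
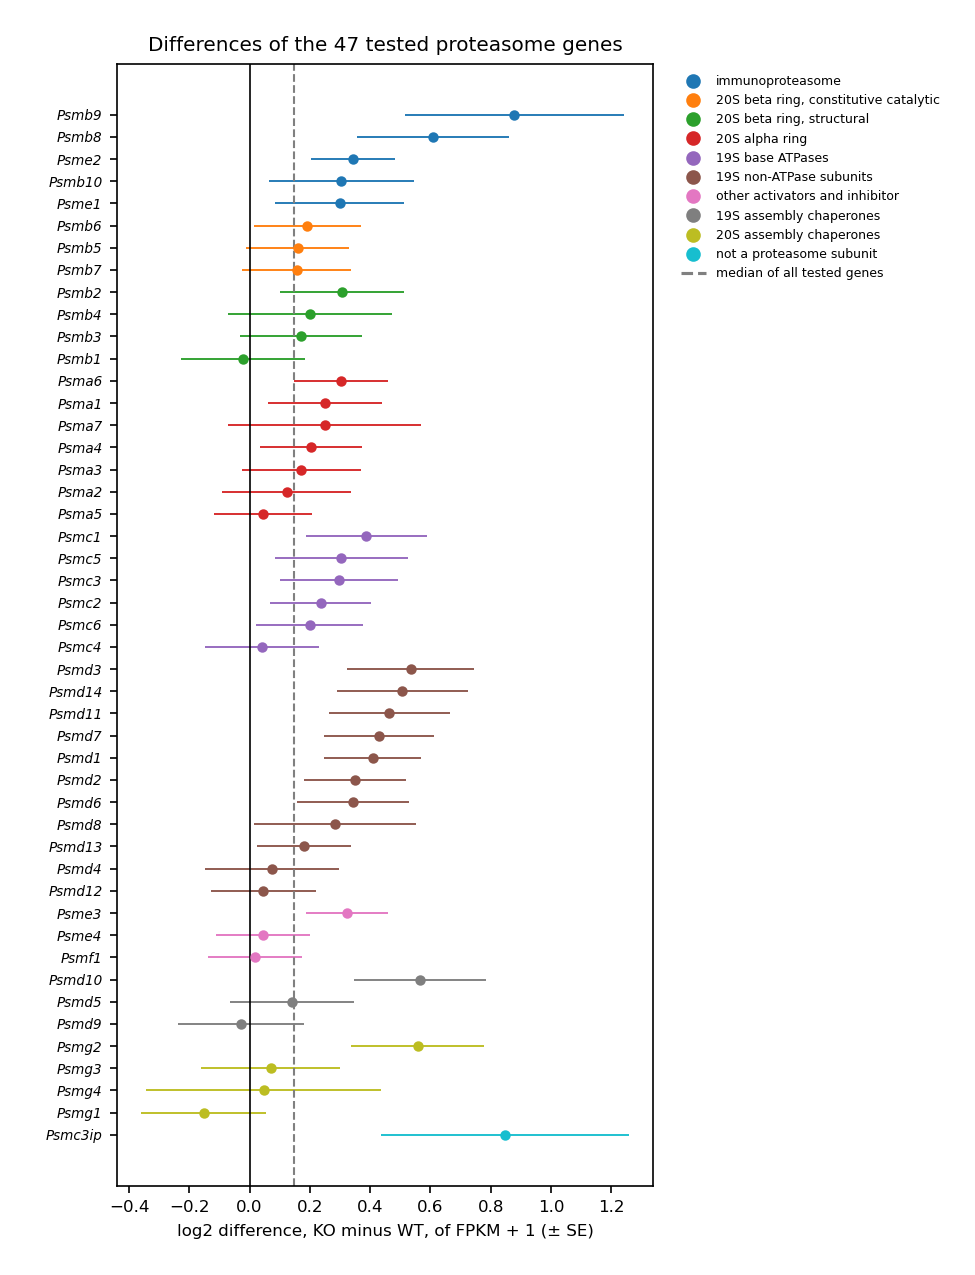
Log2 difference (KO minus WT) of log2(FPKM + 1) for the 47 tested genes with its SE from limma, coloured by role, with a solid line at 0 and a dashed line at the median of all tested genes, 0.15. Psmb9 and Psmb8 lie highest among the true subunits at 0.88 and 0.61, the 3 constitutive catalytic genes lie between 0.16 and 0.19, and no gene passed an adjusted p of 0.05.

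The remaining activators and the inhibitor differed from each other. Psme3, which encodes the nuclear activator PA28 gamma, was 23.2, 23.1 and 20.7 FPKM in KO, against 18.0, 18.3 and 16.7 FPKM in WT. The groups did not overlap, with a log2 difference of 0.32 (SE 0.14, adjusted p = 0.328). Psme4, the large activator PA200, and Psmf1, the inhibitor PI31, had log2 differences of 0.04 and 0.02, and after median-of-ratios rescaling of -0.10 and -0.11.

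Assembly chaperone genes had lower levels than any constitutive subunit, between 3.83 and 11.1 FPKM on average, and differed among themselves. Psmd10, the cap chaperone gankyrin, was 4.96, 4.44 and 4.75 FPKM in KO, against 1.81, 3.83 and 3.22 FPKM in WT, with a log2 difference of 0.57 (SE 0.22, adjusted p = 0.309, the smallest of the 47). The KO libraries were tightly grouped above a wide WT range. The other cap chaperone genes, Psmd5 and Psmd9, had log2 differences of 0.14 and -0.03, of which the value for Psmd5 was -0.027 after quantile normalization. Psmg2, which encodes an alpha ring chaperone, was 14.2, 12.3 and 13.3 FPKM in KO, against 8.90, 6.22 and 11.7 FPKM in WT. The groups of Psmg2 did not overlap as deposited but did after median-of-ratios rescaling (log2 difference as deposited 0.56, SE 0.22, adjusted p = 0.314). Its partner in the same chaperone dimer, Psmg1, was 8.78, 11.3 and 8.15 FPKM in KO, against 8.05, 11.2 and 12.7 FPKM in WT, with a log2 difference of -0.15. Psmg4 ranged from 4.80 FPKM in KO replicate 3 to 16.5 FPKM in KO replicate 2, outside the WT range on both sides, and its log2 difference was 0.05. Psmg3 had a log2 difference of 0.07, and after median-of-ratios rescaling both were below 0 (-0.092 and -0.068).

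The 3 genes that the symbol rule took in without a role in the common proteasome were low. Psma8, the testis alpha subunit, was 0.384, 0.578 and 0.356 FPKM in KO, against 0.891, 0.545 and 0.394 FPKM in WT. Psmb11, the catalytic subunit of the thymus, lay between 0.128 and 0.243 FPKM in KO and between 0.101 and 0.153 FPKM in WT. Psmc3ip encodes a partner of meiotic recombinases and no proteasome subunit, and its locus overlaps that of Mlx. It was 2.66, 1.90 and 4.28 FPKM in KO, against 1.04, 0.288 and 2.67 FPKM in WT, with overlapping groups and a log2 difference of 0.85 (SE 0.41, adjusted p = 0.371).

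In level, the genes of the assembled particle were close to each other. The 31 tested constitutive subunits averaged from 22.1 FPKM for Psmd14 to 75.4 FPKM for Psmb1 over the 6 libraries, and Psmb1 and Psma4, at 75.4 and 74.2 FPKM, did not differ beyond their spread. The inducible catalytic genes averaged 11.7 FPKM for Psmb8, 10.3 for Psmb10 and 7.94 for Psmb9, below every constitutive subunit. Summed, the 31 constitutive genes made up 0.318%, 0.362% and 0.313% of all FPKM in the KO libraries, against 0.274%, 0.286% and 0.322% in the WT libraries, so that the groups overlapped. The coefficient of variation of the 47 tested genes had a median of 16.7% in KO and 13.4% in WT, and it was larger in KO for 30 of them.

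The partners and regulators of the proteasome outside the symbol rule were read from a list of other genes. Of 28 tested genes, 24 had a log2 difference above 0, against 69.7% of all genes, and none was called. At an unadjusted p under 0.05 there were 2, both higher in KO, a smaller share than the 11.2% of all genes. In 8 every KO library lay above every WT library, where 16.7% of all genes did so. The median log2 difference was 0.23, against 0.15 for all genes. Those 2 were Nfe2l2, which encodes the stress factor NRF2, and the ubiquitin shuttle gene Ubqln2. Nfe2l2 averaged 33.4 ± 5.08 FPKM in KO and 16.3 ± 1.90 FPKM in WT (SD, n = 3 each). Its log2 difference was 0.99 (SE 0.17, adjusted p = 0.128). Ubqln2 averaged 12.5 ± 3.52 FPKM in KO and 6.94 ± 0.760 FPKM in WT. Ufd1l, a cofactor of the unfoldase VCP, was 12.3 ± 0.764 FPKM in KO and 9.43 ± 1.47 FPKM in WT. The cap-bound thioredoxin-like gene Txnl1 was 23.9 ± 2.53 FPKM in KO and 18.2 ± 2.18 FPKM in WT. These 4 genes are among the 8 with separated groups, with adjusted p from 0.128 to 0.334. Nfe2l1, which encodes the factor that induces proteasome genes when proteasome activity is low, averaged 24.9 ± 5.32 FPKM in KO and 22.6 ± 2.25 FPKM in WT, and was chosen after its values were seen.

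The genes of MHC class I antigen presentation, which use the peptides of the immunoproteasome, were divided. Of 14 tested, 7 had a log2 difference above 0, against 69.7% of all genes, and 0 were called. At an unadjusted p under 0.05, 2 were higher and 1 lower, where 11.2% of all genes were higher and 3.99% lower. The list median was 0.03, against 0.15 for all genes. Tap1, which shares its start region with Psmb9, was 7.36, 9.68 and 7.57 FPKM in KO, against 3.38, 3.44 and 6.20 FPKM in WT, with a log2 difference of 0.82 (SE 0.23, adjusted p = 0.234). Unlike those of Psmb9, its groups did not overlap. The class I heavy chain gene H2-K1 was 182, 139 and 144 FPKM in KO, against 219, 255 and 230 FPKM in WT, with all KO values below all WT values (log2 difference -0.60, SE 0.19, adjusted p = 0.255). H2-D1 averaged 99.7 ± 7.36 FPKM in KO and 125 ± 19.5 FPKM in WT. Pdia3, a folding enzyme of the peptide-loading complex, was 131, 422 and 139 FPKM in KO, against 98.6, 80.9 and 98.7 FPKM in WT, with KO replicate 2 far above the others.

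Interferon response genes, which interferons induce in most cells, had a median log2 difference of 0.56 over 32 tested genes, against 0.15 for all genes, and 30 were above 0, against 69.7% of all genes. None was called, and 13 were higher and 1 lower at an unadjusted p under 0.05, where 11.2% of all genes were higher and 3.99% lower. Oasl1, Ifit1, Stat2 and Rtp4 had the smallest p, with means of 4.44 ± 1.82, 4.69 ± 2.34, 18.5 ± 1.45 and 7.37 ± 3.63 FPKM in KO and 1.06 ± 0.301, 1.38 ± 0.501, 12.5 ± 0.806 and 2.55 ± 1.02 FPKM in WT (adjusted p from 0.164 to 0.228). The one that was lower was Iigp1, an interferon-induced GTPase gene, with 71.9, 77.3 and 42.0 FPKM in KO, against 77.5, 145 and 105 FPKM in WT. Oasl1, Ifit1 and Rtp4 were highest in KO replicate 2, the highest library for 32.4% of all tested genes. Stat2 was highest in KO replicate 3. Gbp2 and Zbp1, chosen after their values were seen, were highest in KO replicate 1. Since genes of this list peaked in each KO library, a match to the peak of any immunoproteasome gene could be found. Whether the genes of this list vary together with the immunoproteasome genes was not tested.

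Immune cells carry immunoproteasomes, so their markers are given beside these values. In bulk liver, fewer cells of a type and less RNA per cell cannot be told apart. Hepatocyte markers dominated all libraries, with a sum over 5 genes of 29815 to 38895 FPKM in KO and 32457 to 39097 FPKM in WT. The 7 Kupffer cell markers summed to 124, 86.0 and 71.8 FPKM in KO, against 73.4, 88.9 and 65.5 FPKM in WT, and 1 of 7, Marco, had an unadjusted p under 0.05. The 6 dendritic cell and MHC class II markers summed to 36.1, 9.73 and 18.0 FPKM in KO, against 19.7, 25.5 and 15.6 FPKM in WT, with no group apart from the other. This sum came almost wholly from Cd74, H2-Aa and H2-Ab1. Flt3, Xcr1 and Itgax averaged at most 0.109 FPKM each and were not tested. In KO both the sum and Psmb8 were highest in replicate 1 and lowest in replicate 2. This order was not particular to these markers. The hepatocyte sum was 38895, 29815 and 31408 FPKM in KO, and the lymphocyte sum 3.51, 1.31 and 2.44 FPKM. In WT replicate 3 the dendritic cell and MHC class II sum was the lowest of its group and Psmb8 the highest. The part of any of these cell types in the level of Psmb8 was not tested.

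The other cell type lists showed no separation of KO from WT in their sums. The 10 lymphocyte markers summed to between 1.31 and 3.51 FPKM in KO and between 1.79 and 2.94 FPKM in WT, and 8 of them were listed at 0 in at least 1 library, among them the T cell genes Cd3e, Cd3g and Cd8a. The 6 monocyte and neutrophil markers lay between 23.9 and 40.1 FPKM in KO and between 22.9 and 48.3 FPKM in WT. The sums were 34.9 to 53.3 FPKM in KO and 32.6 to 52.7 FPKM in WT for 5 sinusoidal endothelial markers, 71.7 to 131 and 95.9 to 105 FPKM for 6 stellate cell and fibroblast markers, and 12.5 to 28.9 and 12.1 to 21.1 FPKM for 5 cholangiocyte markers. Of these lists, 1 marker, the stellate gene Reln, had an unadjusted p under 0.05. Markers with a mean below 1 FPKM were not tested. Among those, the cholangiocyte gene Sox9 was 0.062, 0.371 and 0.242 FPKM in KO, against 0.920, 1.83 and 0.744 FPKM in WT. The lymphocyte gene Nkg7 likewise had all KO values below all WT values, at lower levels. The cholangiocyte sum came mostly from Spp1, which averaged 15.5 FPKM.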

How the data were processed

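RNA of frozen liver was isolated with Trizol and miRNeasy columns, and libraries were made by an Illumina or a Nugen protocol, per the labels' protocols. TopHat, edgeR, mm9 and mm10 appear in the submitters' processing notes, with no role given. The values deposited by the authors are, per the file headers, FPKM per locus and library, with locus positions on mm10. FPKM divides by library total, so abundant transcripts shift all other values. Of 23847 loci, 312 without a value were left out. Values of 0, listed as 0.001, were set to 0.

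The scale was log2(FPKM + 1), on which differences of low genes are understated. Genes with a mean of at least 1 FPKM were tested in limma 3.58.1 (R 4.3.3, mean-variance trend, two-sided, genotype as the only term), with Benjamini-Hochberg adjustment over all genes. Pair ratios used an exact permutation test over samples (scipy 1.17.1). The alternatives were a pseudocount of 0.1, no filter, median-of-ratios rescaling, quantile normalization, a replicate block and leaving out each library. The members and lists were chosen with earlier results of these data known. Named were all immunoproteasome and constitutive catalytic genes, up to 4 genes with the smallest p of each other group or list, genes with separated groups, and the cell type markers. Others were chosen after their values were seen.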

Additional observations from a re-analysis of the deposited data

How the results depend on the processing

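No proteasome gene was called under any of the 11 alternatives, and their smallest adjusted p was 0.15, with the replicate block. The deviations of KO and WT replicate 1 from their group means had a correlation of -0.084. For replicate 2 it was 0.155 and for replicate 3 it was 0.164. Between unlike replicate numbers it ranged from -0.263 to 0.175, so these values cannot settle whether the replicate numbers pair the samples. The count of all genes past an adjusted p of 0.05 was 13 in limma, 47 with the replicate block and 0 with no filter (2111 at an unadjusted p under 0.05). With 1 library left out it ranged from 0, without WT replicate 1 (940 at an unadjusted p under 0.05), to 242, without KO replicate 2. The cause was not tested.

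The median log2 difference of the immunoproteasome genes was 0.34, and 0.19 after median-of-ratios rescaling and 0.18 after quantile normalization, because both remove the shift of all genes. The log2 ratio difference of Psmb10 to Psmb7 ranged from -0.014 to 0.23 with 1 library left out. Of the 47 tested genes, 32 kept the sign of their log2 difference under all 11 alternatives and 15 did not. Median-of-ratios rescaling turned Psma2 to -0.027, Psma5 to -0.10, Psmc4 to -0.11, Psmd4 to -0.075, Psmd12 to -0.10, Psme4 to -0.10, Psmf1 to -0.11, Psmg3 to -0.068 and Psmg4 to -0.092. Quantile normalization turned the same genes to -0.034, -0.11, -0.11, -0.087, -0.11, -0.12, -0.16, -0.11 and -0.14, in that order, and Psmd5 to -0.027. With 1 library left out, Psma2 ranged from -0.0015 to 0.28, Psma5 from -0.029 to 0.15, Psma7 from -0.072 to 0.49, Psmb1 from -0.14 to 0.12, Psmb4 from -0.045 to 0.37, Psmc4 from -0.11 to 0.17, Psmd4 from -0.12 to 0.26, Psmd5 from -0.068 to 0.25, Psmd8 from -0.012 to 0.45, Psmd9 from -0.16 to 0.16, Psmd12 from -0.065 to 0.13, Psme4 from -0.031 to 0.13, Psmf1 from -0.056 to 0.13, Psmg3 from -0.064 to 0.27 and Psmg4 from -0.30 to 0.50.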
